A study of Mus musculus with 3 samples.

Results

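The genes described are 10 genes of the mammalian circadian clock, *Clock*, *Arntl*, *Npas2*, *Per1*, *Per2*, *Per3*, *Cry1*, *Cry2*, *Bhlhe40* and *Bhlhe41*, and the measurement is where Setd1a peaks lay around them. They were taken from a list of names, with earlier results of these data known, *Bhlhe40* and *Bhlhe41* included, and all 10 were found among the 22028 protein-coding genes of the mouse annotation GENCODE M21. For each gene, a peak was called a promoter peak where its nearer edge lay no more than 3000 bp from a transcription start site (TSS) in the annotation, whichever transcript it belonged to. Peaks elsewhere in the gene body were taken as well, and width, position and sequence were recorded for each. Where a gene had neither, the distance to the nearest peak was taken instead. Setd1a is a histone H3K4 methyltransferase, and H3K4 trimethylation marks active promoters.

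The peaks came from CUT & RUN, a method that releases the DNA around a protein by means of an antibody and a tethered nuclease. There were 3 libraries, namely 2 with an antibody against Setd1a, from independent cultures, and 1 with rabbit IgG as the negative control. All of them were made from adult neural stem cells (NSCs; the labels say neural progenitor cells) of the dentate gyrus of Hopx-CreERT2::Setd1a fl/fl::H2B-GFP mice aged 7 to 8 weeks. The label of each library gives the genotype as WT, and none stood for a loss of Setd1a, although all came from mice with floxed *Setd1a* alleles and a tamoxifen-inducible Cre driven from *Hopx*. The study added a lentivirus for GFP alone or for Cre-GFP to its quiescent cultures on day 2 and calls those with GFP alone WT, while the labels of these libraries name no virus. The cells were taken on day 5 of culture in quiescence medium, which held BMP4 and FGF2 at 20 ng/ml each and no EGF, so they are a model of the quiescent state outside the tissue.

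The list analysed held 6969 intervals that were present in both Setd1a replicates. It holds coordinates alone, so no spread between replicates and no test could be computed for any value below. The read depth is unknown, and a gene without a peak is a gene without an interval in this list. Beside a share of 22.9% of all protein-coding genes with a promoter peak, the promoters of 5 of 8 NSC marker genes had one (*Sox2*, *Nes*, *Gfap* and *Id4* among them), as did 1 of 4 markers of the oligodendrocyte lineage (*Olig2*). None of the 5 neuronal, 4 microglial or 3 endothelial markers had one, and none of the microglial or endothelial markers has a CpG-rich promoter. With so few genes in each list, these counts do not settle which cells were present. *Hopx*, *Sox9* and *Fabp7* were the NSC markers with no promoter peak.

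The clock is a loop of transcription and repression that runs with a period of about a day. CLOCK, or its paralog NPAS2, pairs with ARNTL (also called BMAL1) and activates genes through the E-box, a short DNA element. The period and cryptochrome proteins accumulate, enter the nucleus and repress this pair. BHLHE40 and BHLHE41 (DEC1 and DEC2) are basic helix-loop-helix repressors that bind E-boxes themselves. A further loop, through the REV-ERB and ROR nuclear receptors, controls *Arntl*, and the PAR bZIP factors act through the D-box.

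Of the 10 clock genes, 7 had a promoter peak, namely *Arntl*, *Per1*, *Per2*, *Cry1*, *Cry2*, *Bhlhe40* and *Bhlhe41*. Among all protein-coding genes the share was 22.9%, or 5049 genes. *Clock*, *Npas2* and *Per3* had no peak at the promoter or in the gene body, and their nearest peak was over 100 kb from any of their TSSs. For all protein-coding genes the share at such a distance was 39.4%. By role, 1 of the 3 activators had a promoter peak, against 2 of the 3 period genes, both cryptochrome genes and both *Bhlhe* repressors. The study had already presented *Bhlhe40* and *Bhlhe41* as examples of Setd1a targets, from the same peaks. Their promoter peaks were thus known before the count and are not independent of it. The count of 7 was also found with a window of 1000 bp, and it fell to 5 where a peak had to overlap a TSS, which *Bhlhe40* and *Bhlhe41* did not meet.

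**Figure D1:**
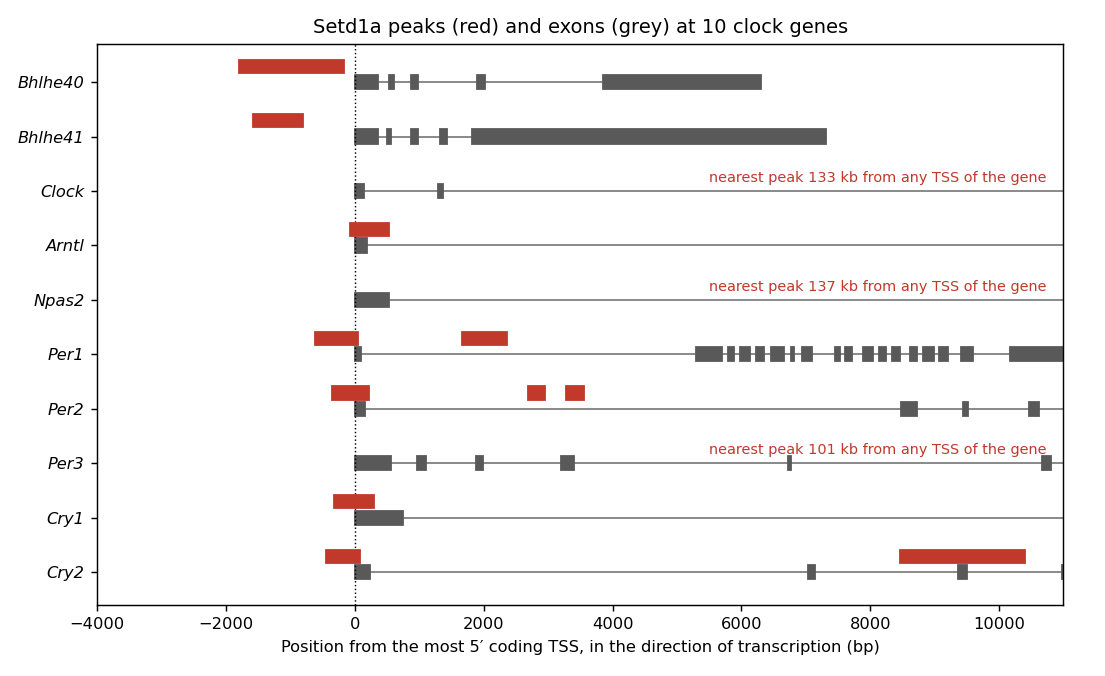
The map shows Setd1a peaks (red blocks) above the exons (grey blocks) of each clock gene, with the x axis in bp from the most 5′ TSS of a protein-coding transcript and transcription running to the right. Peaks span the TSS of *Arntl*, *Per1*, *Per2*, *Cry1* and *Cry2*, lie wholly upstream at *Bhlhe40* and *Bhlhe41*, and are absent from the rows of *Clock*, *Npas2* and *Per3*.

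The promoter peaks overlapped a TSS at 5 of the 7 genes, where the share among all 5049 protein-coding genes with a promoter peak was 71.2%. The exceptions were *Bhlhe40* and *Bhlhe41*, whose peaks ended 172 and 803 bp upstream of the TSS. The 7 genes had 9 promoter peaks in all, since *Per1* and *Per2* had 2 each. Among protein-coding genes with a promoter peak, 9.35% had 2 or more. Each of the 9 peaks was nearer to a TSS of its clock gene than to that of any other gene, and 8 of the 9 had no other gene's TSS within 3000 bp. The peak at *Bhlhe40* was the exception, with the noncoding genes *0610040F04Rik* and *Gm17055* in reach. Neither share was computed over all promoter peaks, so these counts describe the 9 peaks only.

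*Arntl* encodes the main partner of CLOCK and NPAS2. The gene is on chromosome 7 of mm10 (113207465 to 113314126, plus strand), and its single peak ran from 113207393 to 113207997, a width of 605 bp. It began 72 bp upstream of the TSS and reached 532 bp into the gene, over exon 1 and the start of intron 1. The interval was the richest in GC of the 9 promoter peaks, at 75.5%, with an observed to expected CpG ratio of 0.878. Its stretch from chr7:113207528-113207556 is shown because it holds the only match to the REV-ERB/ROR element in the promoter peaks of the clock genes, in capitals, 72 bp downstream of the TSS within exon 1:

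*Arntl*, plus strand: ggaaggcagAAAGTAGGTCAgggacggag

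Of all 4891 promoter peaks on assembled chromosomes, 25 peaks or 0.511% held a match to this element on either strand.

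*Clock*, on the minus strand of chromosome 5 (76209868 to 76304792), encodes the partner of ARNTL in the activating pair and has 6 annotated transcripts. The nearest peak to any of them ran from 76140282 to 76140570 at the promoter of *Srd5a3* and lay 133 kb downstream of an internal TSS of *Clock*. From the most 5′ coding TSS, the nearest peaks were 164 kb downstream and 600.3 kb upstream, which left 765 kb around the *Clock* promoter without an interval. The *Srd5a3* interval was 289 bp wide, and with intervals under 300 bp left out the nearest peak to *Clock* was 600330 bp away.

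*Npas2*, the paralog of *Clock*, lies on the plus strand of chromosome 1 (39193731 to 39363236). Its nearest peak, from 39478597 to 39479038 at *Tbc1d8*, was 137 kb from an internal TSS and 284 kb from the most 5′ coding TSS. The next interval in the upstream direction was 610.4 kb away, so that 895 kb held no interval. Neither gene for a partner of ARNTL had an interval near it. Of all protein-coding genes, 65.9% had a nearer peak than *Clock* and 66.4% a nearer peak than *Npas2*.

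*Per1*, a period gene that also responds to outside signals, lies on the plus strand of chromosome 11 (69095217 to 69109960). The first peak ran from 69094598 to 69095257, was 660 bp wide and covered the 619 bp upstream of the most 5′ TSS and the first 41 bp of exon 1. The second peak ran from 69096884 to 69097579, was 696 bp wide and lay wholly within intron 1. It began 1667 bp downstream of the first TSS and ended 1369 bp upstream of the TSS of another annotated transcript, farther into the gene. The intervals differed in composition, with a CpG ratio of 0.644 in the first and 0.393 in the second. Repeats annotated in the reference covered 3.48% of the first and 20.3% of the second.

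The first *Per1* peak held a pair of E-boxes (CACGTG), 334 and 150 bp upstream of the TSS (positions are those of the first base of a motif on the coding strand, and both strands were searched for each motif). A pair or more was present in 126 promoter peaks, or 2.58%, and at least 1 E-box in 18.3% of the 1314 promoter peaks within 20% of the width of this one. The second held a cyclic AMP response element (CRE; TGACGTCA), found on either strand in 3.97% of all promoter peaks. Both stretches are shown, with the motifs in capitals, since they set the proximal and the intronic interval apart. The first is chr11:69094863-69095092 and the second chr11:69097176-69097235:

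*Per1*, E-boxes, plus strand: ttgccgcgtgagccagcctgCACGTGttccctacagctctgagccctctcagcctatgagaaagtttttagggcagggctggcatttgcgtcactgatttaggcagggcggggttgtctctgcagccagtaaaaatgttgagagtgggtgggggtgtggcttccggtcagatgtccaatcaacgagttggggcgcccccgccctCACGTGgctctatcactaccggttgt

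*Per1*, CRE in intron 1, plus strand: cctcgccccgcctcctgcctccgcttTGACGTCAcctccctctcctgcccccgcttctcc

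*Per2*, whose protein is a central repressor of the loop, lies on the minus strand of chromosome 1 (91415982 to 91459324). A peak of 574 bp, from 91459102 to 91459675, covered 351 bp upstream of the TSS, exon 1 and the start of intron 1. It had a CpG ratio of 1.13, the highest of the 9 promoter peaks, and held no annotated repeat. Intron 1 carried a further pair of intervals of 274 bp each, from 91456368 to 91456641 and from 91455768 to 91456041. They began 2683 and 3283 bp downstream of the TSS, on either side of the 3000 bp limit, so the first counted as a promoter peak and the second as a gene-body peak. Both were narrow, and 11.6% of all peaks were narrower.

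The peak at the *Per2* TSS held a D-box (TTATGTAA) that starts 125 bp upstream of the TSS, and an E-prime box (CACGTT, an E-box variant) that starts 5 bp downstream of it.  The D-box was present in 0.941% of all promoter peaks and in 1.04% of the 1347 promoter peaks within 20% of the width of this one. The E-prime box was present in 11.3% of all promoter peaks. The stretches shown are chr1:91459416-91459475 and chr1:91459302-91459331, on the coding strand:

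*Per2*, D-box: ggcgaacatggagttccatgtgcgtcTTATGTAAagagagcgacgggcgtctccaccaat

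*Per2*, E-prime box: agcgcgcgcggtCACGTTttccactatgtg

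*Per3*, on the minus strand of chromosome 4 (151003652 to 151044665), was the period gene without a peak. The nearest interval, from 150914169 to 150915029 near the TSSs of *Tnfrsf9* and *Park7*, was 101 kb from an internal TSS of *Per3*. From the most 5′ coding TSS, the intervals on either side were 121 and 129.6 kb away. Its 1000 bp upstream of the TSS held 3 D-boxes, starting 670, 205 and 158 bp from the TSS, and no E-box. The same stretch at *Per2* held 1 D-box and no E-box, and that at *Per1* held 2 E-boxes and no D-box. At least 1 D-box was found in this stretch at 4.07% of 21864 protein-coding genes, and 3 genes in all had 3 or more.

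*Cry1* and *Cry2* encode the cryptochromes, which bind and repress the CLOCK:ARNTL pair. *Cry1* lies on the minus strand of chromosome 10 (85131700 to 85185064), and its peak ran from 85184770 to 85185384. The interval was 615 bp wide and nearly centred on the TSS, with its midpoint 13 bp upstream, and had a CpG ratio of 1.05. It held an E-box and an E-prime box whose starts were 19 bp apart, 50 and 69 bp upstream of the TSS. E-boxes or E-prime boxes that start within 30 bp of each other were present in 47 promoter peaks, or 0.961%, and *Cry1* was the single clock gene among them. Of the 1318 promoter peaks within 20% of its width, 17.5% held an E-box. The stretch is chr10:85185089-85185153, on the coding strand, where the E-prime box reads in its reverse complement:

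*Cry1*, E-prime box and E-box: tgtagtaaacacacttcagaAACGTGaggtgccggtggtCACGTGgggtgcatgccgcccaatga

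*Cry2* lies on the minus strand of chromosome 2 (92403646 to 92434043). Its promoter peak, from 92433961 to 92434498, was 538 bp wide and covered 455 bp upstream of the TSS and the first 83 bp of exon 1. It held 1 E-prime box, which starts 192 bp upstream of the TSS. A second interval ran from 92423645 to 92425581 within the gene, 8462 bp from the same TSS. Its width of 1937 bp exceeded that of 99.7% of the 6969 intervals. It was also the widest of the 1175 gene-body peaks of protein-coding genes that lay over 3000 bp from the TSSs of their gene, for which the median width was 388 bp. The next widest was 1711 bp. The interval overlapped exon 3 of the coding transcript, and 571 bp of it were exonic in some *Cry2* transcript and 1366 bp intronic.

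Both *Cry2* intervals differed in base composition, with a CpG ratio of 0.916 at the promoter and 0.154 within the gene. The lower quartile of the ratio over all promoter peaks was 0.623, and no quartile of the ratio is given for gene-body peaks. The clock gene intervals wholly within an intron had ratios of 0.393 at *Per1*, and 0.506 and 0.246 at *Per2*. The interval within *Cry2* held a pair of E-boxes in its intronic part and 1 CRE. The CRE is exonic in some *Cry2* transcript but lies in an intron of the coding transcript. At least 1 E-box was present in 32.7% of the 55 promoter peaks within 20% of its width. This share is from promoter peaks, which differ from the interval in CpG ratio, and none is given for gene-body peaks. The stretches are chr2:92434203-92434262 and chr2:92423847-92423945, on the coding strand:

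*Cry2*, E-prime box at the promoter: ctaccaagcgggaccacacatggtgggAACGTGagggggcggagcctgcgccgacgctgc

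*Cry2*, E-boxes within the gene: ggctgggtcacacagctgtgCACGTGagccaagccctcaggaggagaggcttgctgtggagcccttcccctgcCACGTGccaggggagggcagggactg

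*Bhlhe40* and *Bhlhe41* both lie on chromosome 6, at 108660629 to 108666925 (plus strand) and 145858243 to 145865558 (minus strand), and had their peaks farther upstream than the other clock genes. The peak at *Bhlhe40* covered the stretch from 1802 to 172 bp upstream of the TSS and the peak at *Bhlhe41* that from 1588 to 803 bp upstream. Neither reached the gene, whereas each of the other 5 genes had its TSS inside a peak. The interval at *Bhlhe40* was 1631 bp wide and that at *Bhlhe41* 786 bp, and they were the widest of the 9 promoter peaks. The next intervals downstream of their TSSs were 122 and 118 kb away.

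The *Bhlhe40* peak held 2 E-boxes, starting 1186 and 257 bp upstream of the TSS, and 1 E-prime box, starting 453 bp upstream. The *Bhlhe41* peak held 1 E-box, 1204 bp upstream, and 2 E-prime boxes, 1045 and 832 bp upstream. At least 1 E-box was present in 32.1% of the 156 promoter peaks within 20% of the width of the *Bhlhe40* peak and in 20.6% of the 1180 within 20% of that of *Bhlhe41*. *Bhlhe41* has another E-box 15 bp upstream of its TSS, outside the interval. The stretches that hold the motifs are shown in the order chr6:108659416-108659475, chr6:108660156-108660397, chr6:145866578-145866782 and chr6:145866365-145866410, each on the coding strand:

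*Bhlhe40*, distal E-box: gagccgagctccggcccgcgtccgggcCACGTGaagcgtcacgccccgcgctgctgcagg

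*Bhlhe40*, E-prime box and proximal E-box: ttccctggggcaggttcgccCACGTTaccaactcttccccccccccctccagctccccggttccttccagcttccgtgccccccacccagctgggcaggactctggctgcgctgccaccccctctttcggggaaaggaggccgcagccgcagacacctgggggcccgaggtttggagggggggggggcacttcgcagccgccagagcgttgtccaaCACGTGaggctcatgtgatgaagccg

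*Bhlhe41*, E-box and E-prime box: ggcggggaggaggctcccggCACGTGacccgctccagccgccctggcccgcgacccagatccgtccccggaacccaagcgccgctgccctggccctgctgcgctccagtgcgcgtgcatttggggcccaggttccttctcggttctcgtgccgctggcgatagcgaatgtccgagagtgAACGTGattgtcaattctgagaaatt

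*Bhlhe41*, proximal E-prime box: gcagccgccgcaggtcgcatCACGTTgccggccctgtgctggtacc

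Across the 9 promoter peaks, 4 held an E-box, those at *Bhlhe40*, *Bhlhe41*, *Cry1* and the first of *Per1*, where the share among all promoter peaks was 15.5%. An E-prime box was present in 5 of the 9. An E-box or an E-prime box was present in 6 of the 9, which is the TSS-proximal peak of each gene except *Arntl*, against 24.4% of all promoter peaks. Per kb of interval, the clock gene peaks held 0.941 E-boxes and 0.941 E-prime boxes, and all promoter peaks 0.318 and 0.224. The loose core CANNTG, of which both motifs are special cases, was present in 9 of the 9 and in 78.7% of all promoter peaks. These matches describe the letters of the intervals only. No binding of a clock protein was measured, and a missing match says nothing of a factor.

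**Figure D2:**
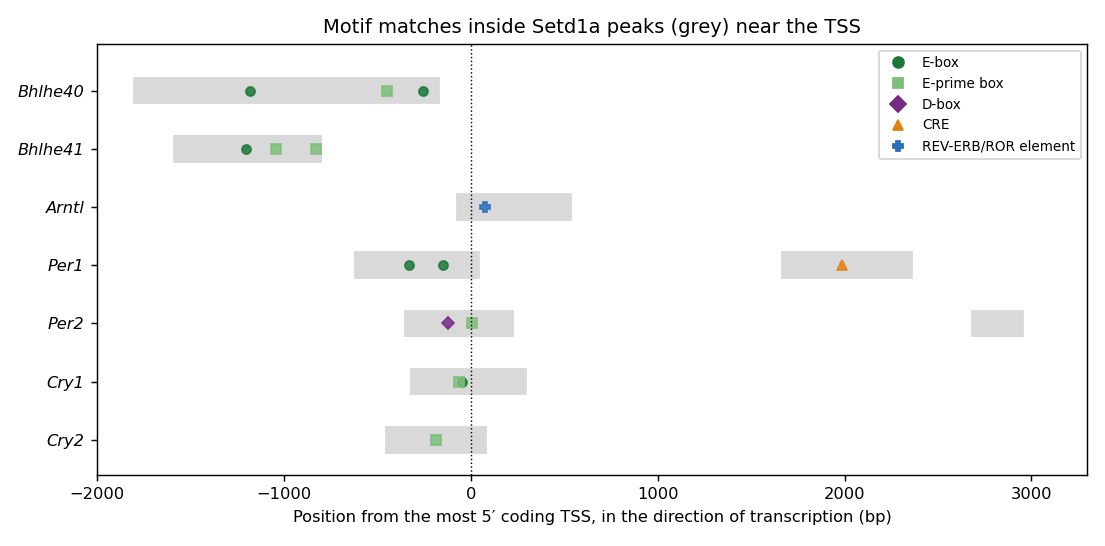
The plot gives the position of each motif match (coloured markers) inside the promoter peaks (grey bars) of the 7 clock genes, with the x axis in bp from the most 5′ coding TSS; the peak within *Cry2* is outside the range. E-boxes and E-prime boxes fall within 500 bp of the TSS at *Per1*, *Per2*, *Cry1* and *Cry2* and extend to 1204 bp upstream at *Bhlhe41*. The *Arntl* peak holds neither motif and has a match to the REV-ERB/ROR element.

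In the 1000 bp upstream of the most 5′ coding TSS, whether or not a peak lay there, an E-box was found at 4 of the 10 clock genes (*Bhlhe40*, *Bhlhe41*, *Per1* and *Cry1*) and at 16.2% of 21864 protein-coding genes. All 4 of them had a promoter peak, although the E-box of *Bhlhe41* in this stretch lay outside it. *Clock* and *Npas2* had no E-box, E-prime box, D-box or CRE in this stretch, and neither had *Arntl*, which had a peak.

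The clock genes without a peak had CpG ratios within the range of those with one, while the GC content of *Clock*, 74.3%, was above the highest of those with a peak, 72.8% at *Cry1*. A promoter was called CpG-rich where the 500 bp on either side of the most 5′ coding TSS had a GC content of at least 50% and a CpG ratio of at least 0.6. This held for 10044 of 21864 protein-coding genes. It held for 9 of the 10 clock genes, including *Clock* (CpG ratio 0.908), *Npas2* (0.799) and *Per3* (0.801). *Bhlhe40*, with a peak, was the exception at a ratio of 0.578 and a GC content of 64.5%. The ratios of the other genes with a peak ran from 0.626 at *Per1* to 1.01 at *Cry1*. Among protein-coding genes with a CpG-rich promoter, 40.9% had a promoter peak, and among the 9 such clock genes 6 had.

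**Figure D3:**
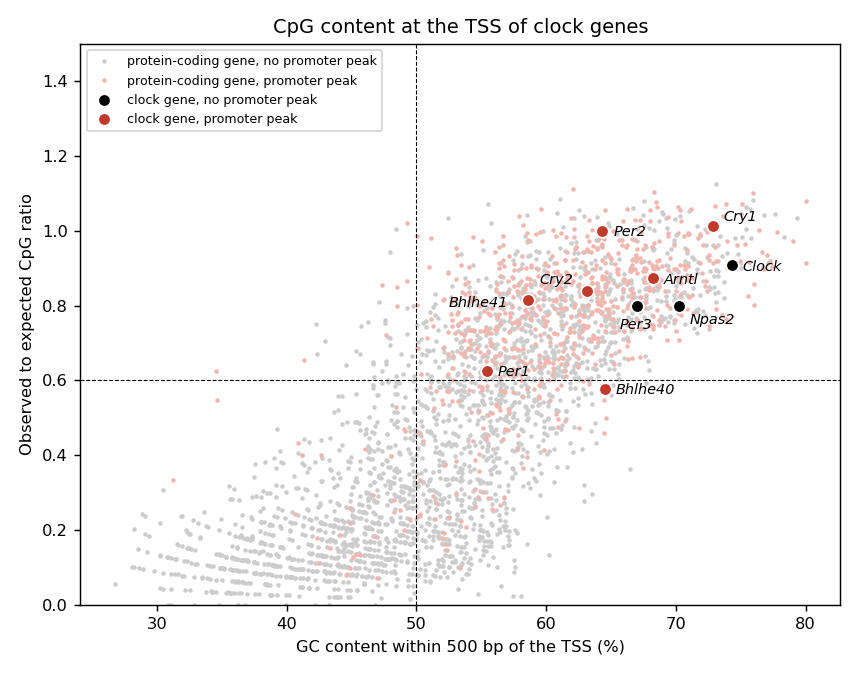
Each point is a gene, with the GC content (x axis, %) and the observed to expected CpG ratio (y axis) of the 500 bp on either side of its most 5′ coding TSS; large points are clock genes and small points a sample of 3000 protein-coding genes, and dashed lines mark 50% and 0.6. *Clock*, *Npas2* and *Per3*, without a promoter peak, lie within the range of CpG ratios of the clock genes with one, and *Clock* has the highest GC content of the 10, at 74.3%.

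The 9 promoter peaks had a median width of 615 bp and ranged from 274 bp, in intron 1 of *Per2*, to 1631 bp, at *Bhlhe40*. All promoter peaks had a median of 508 bp, with quartiles of 354 and 742 bp. The interval nearest the TSS was at least 538 bp wide at each of the 7 genes, above that median. The median covers all promoter peaks, however, and not only those nearest the TSS of a gene. The median GC content was 65.4% in the 9 peaks and 62.2% in all promoter peaks, and the median CpG ratio was 0.746 and 0.791.

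**Figure D4:**
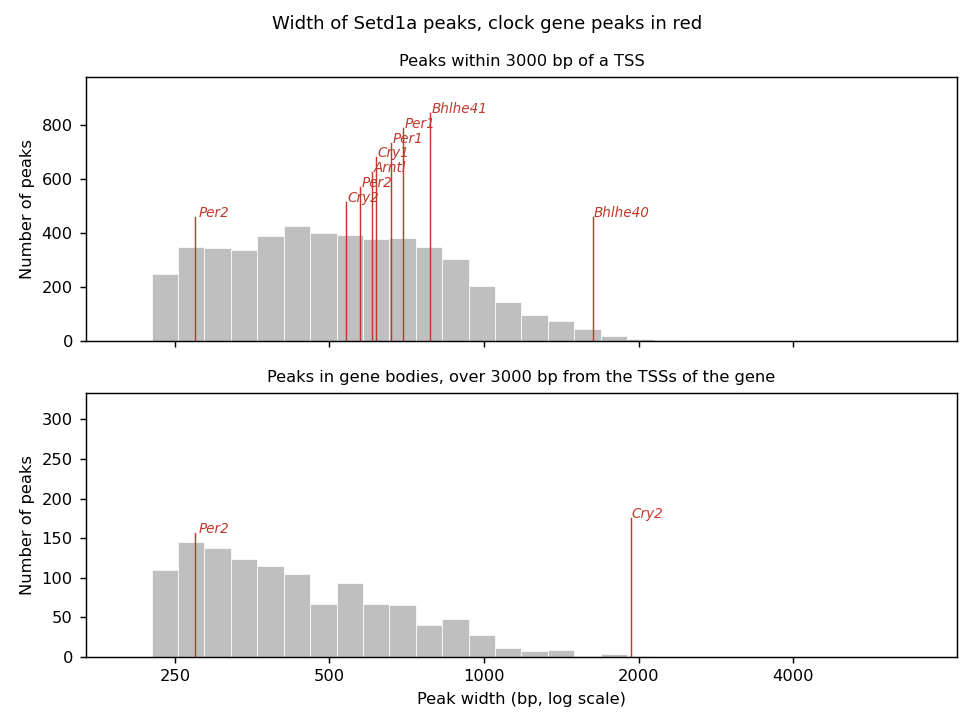
The histograms give the number of peaks (y axis) by width (x axis, bp, log scale) for all promoter peaks (top) and for gene-body peaks of protein-coding genes over 3000 bp from the TSSs of their gene (bottom), with the clock gene peaks as red lines. *Bhlhe40* lies in the upper tail of the promoter peaks at 1631 bp, and the interval within *Cry2* is the widest gene-body peak at 1937 bp.

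Gene-body peaks outside the promoter window were present at 2 of the 10 clock genes, *Per2* and *Cry2*, and at 4.49% of all protein-coding genes. With a promoter window of 1000 bp there were 3 such genes, since the second *Per1* peak then counted as well, and with intervals of at least 300 bp there was 1, *Cry2*.

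Of 22 other genes of the clock pathway, 12 had a promoter peak, beside the 22.9% of all protein-coding genes. A CpG-rich promoter was found at 18 of the 22, beside 10044 of 21864 protein-coding genes, and 11 of these 18 had a promoter peak. Among all protein-coding genes with a CpG-rich promoter the share was 40.9%. Among the nuclear receptors that act on *Arntl*, *Rorb* had a peak over its TSS, and *Nr1d1*, *Nr1d2* and *Rora* had none. *Nr1d1* and *Nr1d2* encode REV-ERB alpha and beta, and their nearest peaks lay 19.8 and 31.5 kb away. Of the PAR bZIP factors and the D-box repressor *Nfil3*, *Dbp* and *Tef* had a promoter peak, and *Hlf* and *Nfil3* had none. The *Tef* interval, 2078 bp wide, was broader than any at the 10 clock genes and held 3 E-boxes.

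Of the kinases, *Csnk1d* (casein kinase 1 delta, which phosphorylates the period proteins) and *Gsk3b* had a peak over the TSS, while the nearest peak to *Csnk1e* was 18.5 kb away. Of the F-box proteins, *Btrc* and *Fbxw11*, which act on the period proteins, had a promoter peak. *Fbxl21* had its nearest peak 75.4 kb away. The group of partners and modulators had a peak at *Ciart*, *Cipc*, *Timeless* and *Tipin*. *Ciart*, a repressor of the CLOCK:ARNTL pair, had an interval of 1405 bp with 4 E-boxes, and *Cipc*, which inhibits CLOCK, one of 602 bp with 1 E-box. *Arntl2*, the paralog of *Arntl*, had its nearest peak 70.6 kb away, and *Nono* 673 kb away.

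**Figure D5:**
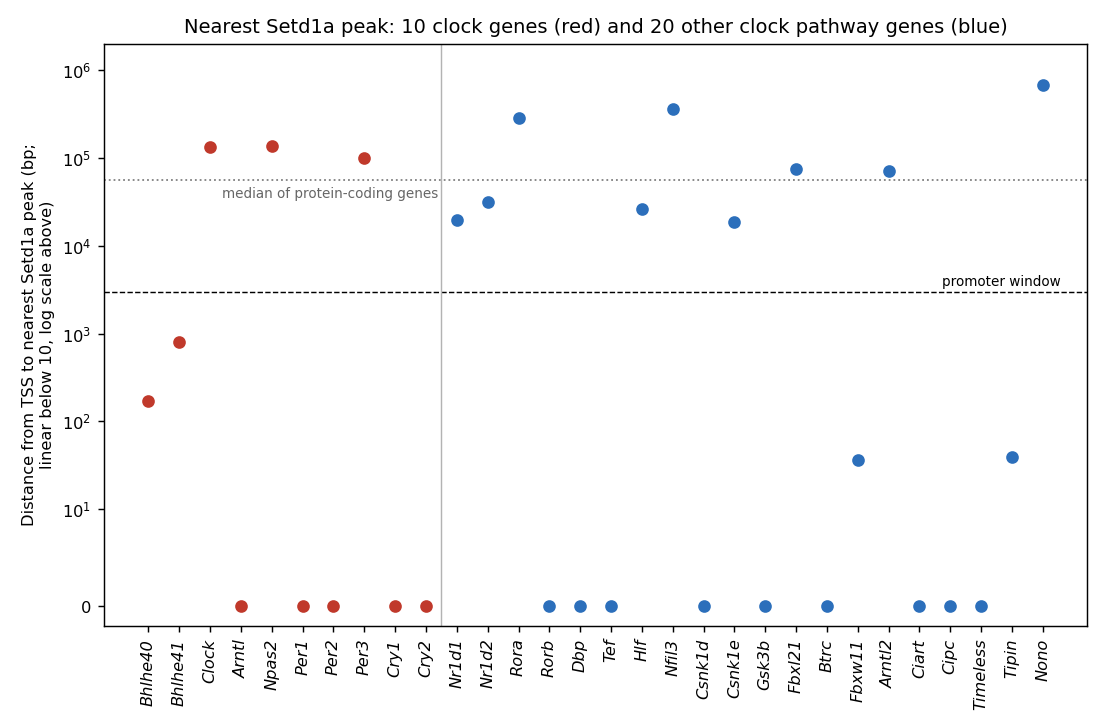
The plot gives the distance in bp from the TSS of any transcript to the edge of the nearest Setd1a peak (y axis, linear below 10 and log scale above) for the 10 clock genes (red) and 20 other clock pathway genes (blue); the dashed line marks 3000 bp and the dotted line the median of protein-coding genes. *Clock*, *Npas2* and *Per3* lie above that median of 55987 bp, and 5 of the 10 clock genes are at 0.

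Across the 10 clock genes the median distance to the nearest peak was 86 bp, and it was 37.5 bp across the 22 other pathway genes, against 55987 bp over the protein-coding genes. Pairs of paralogs were split in several cases. *Arntl* had a promoter peak and *Arntl2* had none, *Per1* and *Per2* had one and *Per3* had none, and the same held for *Csnk1d* against *Csnk1e*. Both members had one in the pairs *Cry1* and *Cry2*, *Bhlhe40* and *Bhlhe41*, and *Btrc* and *Fbxw11*. Neither member had one in the pairs *Clock* and *Npas2*, and *Nr1d1* and *Nr1d2*.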

How the data were processed

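Per the submitters' processing notes and the methods, the authors trimmed the reads (Trimmomatic 0.32), mapped them uniquely to mm10 (Bowtie2 2.1.0), removed reads of low mapping quality (SAMtools 0.1.18), called peaks with MACS2 2.2.8 at its default parameters and deposited the intervals found in both Setd1a replicates, as chromosome, start and end in bp. Use of the IgG library in peak calling and the overlap required between replicates are not given in the sources used here. Starts were read as counted from 1, and another convention would shift positions by 1 bp. Unique mapping can leave repeats without peaks, and an intersection of replicates can narrow intervals and drop weak ones.

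Distances ran from a TSS of GENCODE M21 to the nearer edge of a peak. Sequences are RefSeq's GRCm38.p6, the assembly named mm10, and 12 of 12 RefSeq promoter entries for 8 of the clock genes were identical to it. Distances and motif matches were first tested on simulated placements (1000 of 1000 and 200 of 200 recovered). Python 3.11.15, pandas 2.3.3, pysam 0.24.0, samtools 1.23.1 and matplotlib 3.10.9 were used. The rule for named genes took the 10 clock genes, the 22 pathway genes and any gene with a TSS within 3000 bp of a clock gene peak. Cell type markers are named from their own list, and *Srd5a3*, *Tbc1d8*, *Tnfrsf9*, *Park7* and the genes under other observations were named after their values were seen. Members and lists were chosen with earlier results of these data known, and the CRE, the spacing and number of motifs and the search of the 1000 bp upstream were added after the data were seen. Some genes of these lists are counted but not reported here by name. Expression, signal tracks and values per library were not analysed here.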

Additional observations from a re-analysis of the deposited data

How the results depend on the processing

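Alternatives changed the promoter window, the transcripts, the assignment of peaks, the minimum width and the merging of intervals. The number of clock genes with a promoter peak was 5 to 7 of 10, that of pathway genes 10 to 12 of 22 and that of protein-coding genes 3596 to 5049. Each lowest value came from peaks that overlap a TSS. With a minimum width of 300 bp, the number of clock genes with a gene-body peak outside the window was 1 and the nearest peak to *Clock* lay 600330 bp away. With TSSs of protein-coding transcripts only, the nearest peak lay 284385 bp from *Npas2* and 120761 bp from *Per3*. With intervals within 1000 bp merged, the median width of the promoter peaks was 660 bp, since the pair in intron 1 of *Per2* became a single interval. With any CANNTG in place of CACGTG, 9 of 9 promoter peaks held an E-box, and with 300 bases around the midpoint 3 did. No paired analysis was possible because only intervals shared by the replicates were analysed, and for the same reason no replicate was left out in turn. The unknown depth limits every statement on genes without a peak.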

Other observations

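Within 50 kb of the clock genes, further intervals lay at neighbouring genes. Upstream of *Per1*, 3 intervals lay 21465 to 35532 bp away, at *Tmem107* and *Snord118* and around *Borcs6*. Downstream of *Per2*, *Hes6*, a gene of the Hes family of bHLH proteins, had 2 intervals, of 651 and 234 bp. A peak 25126 bp upstream of *Cry2*, at *Slc35c1*, was 390 bp wide and held 1 E-box.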
